A study of Mus musculus with 24 samples.

Results

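Microglia are the resident macrophages of the brain, and 10 genes that mark them or that they make in quantity were followed in the cerebral cortex and whole blood of mouse neonates. The 10 genes were found by their symbols among the 48709 genes of the deposited count table, and each symbol had 1 row. They were 7 genes of microglia identity and signalling (Cx3cr1, P2ry12, Tmem119, Csf1r, Aif1, Trem2 and Tyrobp) and the 3 genes of complement C1q (C1qa, C1qb and C1qc). The study compared neonates of dams that breathed nPM, a nano-sized particulate fraction of near-freeway air, with neonates of dams that breathed filtered air (control). All were C57BL/6J by their labels (the study's methods name C57BL/6NJ), with no transgene or deletion. They were 3 to 5 days old by their labels, and the methods give day 5. Exposure of the dams ran from gestational day 2 until birth, on 3 days of each week and for 5 h each time, at a dose that the labels write as 300 mg/m3 and the methods in micrograms. Each tissue had 12 libraries, 6 nPM and 6 control, with 3 females and 3 males in each. In the labels the libraries are numbered V1 to V24, and those numbers are used here. By the methods, the neonates of 1 sex and exposure were taken from different litters. The labels do not say which litter a library came from or which cortex and blood came from the same pup, so p-values measure the spread between these libraries.

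Microglia enter the brain early in development from the yolk sac and in the first days after birth are multiplying, moving into the cortex and clearing dying cells and synapses. CSF1R, the receptor for CSF1 and IL-34, keeps them alive. CX3CR1 binds fractalkine (CX3CL1), which neurons display, and P2RY12 senses ADP and steers the processes of resting microglia. P2RY12 is also the ADP receptor of platelets. TMEM119 is a surface protein used as a marker of microglia, and AIF1 (IBA1) is an actin-binding protein of macrophages. TREM2 binds lipids and apolipoproteins and signals through the adaptor TYROBP (DAP12), which also serves receptors of neutrophils, monocytes and natural killer cells. C1q, built from A, B and C chains, is the recognition part of the classical complement pathway. In brain it is made mainly by microglia and tags synapses for removal.

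In the deposited annotation (mm10), C1qb (chr4:136880129-136886187), C1qc (chr4:136889804-136893065) and C1qa (chr4:136895917-136898803) lay next to each other on the minus strand within 18675 bases, and no other annotated gene overlapped them. Trem2 (chr17:48346401-48354147, plus strand) and Aif1 (chr17:35170991-35176068, minus strand) were on chromosome 17, with no overlapping gene. Tmem119 (chr5:113793729-113800516, minus strand) and Tyrobp (chr7:30413760-30417585, plus strand) also stood alone. P2ry12 (chr3:59216272-59262871, minus strand) shared its interval with Med12l on the plus strand. The Cx3cr1 row spanned chr9:119901616-120068283 on the minus strand and held 5 other genes, and Csf1r overlapped Hmgxb3 and Mir6983. The strand setting of the counting was not given in the sources used here, so reads from stretches that P2ry12, Cx3cr1 or Csf1r share with a neighbour cannot be told apart from the neighbour's.

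Most of the 10 genes varied together between libraries, as described further on. Promoter sequences are shown here beside that, and a link between sequence and variation was not tested. The RefSeq promoter table (build GRCm38.p6) held 6 of the 10 genes, namely Cx3cr1, P2ry12, Aif1, Trem2, C1qb and C1qc. The 250 bases before the RefSeq start were searched on both strands for 2 cores of the kind bound by PU.1, the factor (encoded by Spi1) that macrophages need: GAGGAAG and GGAAGT, with reverse complements CTTCCTC and ACTTCC. Of the 6 genes, 4 held at least 1 of them, against 26.4% of the 32851 promoters in the table. GAGGAAG was found in C1qc and Trem2 (10.6% of all promoters) and GGAAGT in C1qb, C1qc and P2ry12 (19.7% of all promoters). These are matches of letters, which are common in the genome, and the window of Cx3cr1 or Aif1 held neither. The 4 sequences are printed 5′ to 3′ in the direction of the gene, with the matches in capitals.
C1qb, chr4:136886201-136886450, strand -: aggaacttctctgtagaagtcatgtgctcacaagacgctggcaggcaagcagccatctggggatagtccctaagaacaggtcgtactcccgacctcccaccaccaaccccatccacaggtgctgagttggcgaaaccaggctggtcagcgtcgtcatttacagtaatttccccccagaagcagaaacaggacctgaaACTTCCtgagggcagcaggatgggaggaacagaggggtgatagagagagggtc
C1qc, chr4:136892915-136893164, strand -: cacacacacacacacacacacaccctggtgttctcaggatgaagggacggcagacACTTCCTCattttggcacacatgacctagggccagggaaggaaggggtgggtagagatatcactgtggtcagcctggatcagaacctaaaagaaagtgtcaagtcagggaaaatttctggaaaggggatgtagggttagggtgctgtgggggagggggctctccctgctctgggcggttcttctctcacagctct
P2ry12, chr3:59262986-59263235, strand -: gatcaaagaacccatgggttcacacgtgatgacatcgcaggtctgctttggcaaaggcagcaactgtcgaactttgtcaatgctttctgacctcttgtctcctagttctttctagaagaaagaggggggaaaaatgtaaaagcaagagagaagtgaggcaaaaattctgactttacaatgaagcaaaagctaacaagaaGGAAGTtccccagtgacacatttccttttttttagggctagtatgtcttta
Trem2, chr17:48346151-48346400, strand +: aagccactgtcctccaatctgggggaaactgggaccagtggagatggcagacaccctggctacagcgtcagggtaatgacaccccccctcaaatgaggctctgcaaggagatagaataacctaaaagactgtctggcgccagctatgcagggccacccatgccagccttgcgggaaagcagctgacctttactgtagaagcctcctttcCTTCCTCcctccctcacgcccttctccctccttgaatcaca
The match in C1qb began 53 bases before the RefSeq start, that in P2ry12 51 bases and that in Trem2 41 bases. In C1qc the 2 matches overlapped and began 194 and 195 bases before the start. The RefSeq start of C1qc lay 151 bases inside the deposited gene, so the window overlaps that gene model.

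Total counts on genes ranged from 22301409 to 33804371 per library in cortex and from 13595647 to 21895536 in blood. All 8 neuron markers were counted in every cortex library, with a summed level of 4391 CPM (counts scaled to equal library totals) or more, and globin genes took 66.2 to 76.8% of the counts of 11 blood libraries. Library V2, a control female blood, stood apart. It had 22461 genes detected against 17273 at most in another blood library, 50.1% globin, and 3861 CPM of the skin keratin Krt1 against 3.62 CPM at most in other blood. It was left out of the blood comparisons, and its values are given separately. Globin genes were also counted in cortex, with summed levels of 244 to 445 CPM in sequencing lane 2 and 614 to 678 CPM in lane 3. Each lane held the same numbers of every sex and exposure group of cortex.

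All 10 genes were counted in all 12 cortex libraries, with a mean of 113 counts for Aif1 and of 1615 for Csf1r. Levels between genes were compared per length, as RPKM (CPM divided by gene length in kilobases, here with TMM scaling). C1qa had the highest mean RPKM at 17.7 ± 2.41 (SD, n = 12), followed by C1qb at 17.5 ± 2.27 and by the adaptor Tyrobp at 15.8 ± 2.50. P2ry12 had 12.6 ± 2.76, C1qc 11.2 ± 1.63, Csf1r 11.1 ± 1.75 and Cx3cr1 9.08 ± 1.35 RPKM. Tmem119 was at 3.38 ± 0.907, Aif1 at 2.48 ± 0.440 and Trem2 at 1.20 ± 0.265 RPKM. This order depends on the deposited gene lengths, such as 4946 bases for Trem2 and 1532 for Aif1. By mean TMM-scaled CPM, Trem2 (5.94) was above Aif1 (3.79), and C1qc (21.7) was above C1qb (19.1) and C1qa (18.4). In RPKM, C1qa was above C1qb in 6 of 12 libraries and C1qc above Csf1r in 5 of 12, so neither pair differed beyond its spread. Elsewhere the gene above exceeded its neighbour in 10 to 12 libraries. The ranges of the 12 libraries still overlapped between every pair of neighbours except Cx3cr1 and Tmem119.

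The 10 genes were not equally steady between libraries. The coefficient of variation of RPKM over the 12 cortex libraries was lowest for C1qb at 12.9% and C1qa at 13.6% and highest for Tmem119 at 26.8%, with P2ry12 at 21.9% and Trem2 at 22.1%. Counting error alone would give 4.19% for C1qb and 6.53% for Tmem119, so each gene varied more than counting allows. Library V24, a control male, had the highest TMM-scaled CPM of all 12 cortex libraries for 10 of the 10 genes. V13 was above the median for 10 of 10, V20 for 0 and V16 for 1, and V20 and V16 were each the lowest library for 3 genes. The summed TMM-scaled CPM of the 10 genes was 285.6 in V24, between 166.8 and 232.7 in the other 11 libraries, and lowest in V16. In tissue RNA, a different number of microglia and a different amount of RNA per microglia cannot be told apart.

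C1q and identity genes followed each other from library to library. Over the 12 cortex libraries the summed RPKM of the 3 C1q genes and of the 7 identity genes had Pearson's r = 0.893 (permutation p = 0.00026) and Spearman's rho = 0.839 (permutation p = 0.00112). Without V16 and V24, the libraries farthest from the median of the identity sum, r was 0.709, and within the 8 libraries of lane 2 it was 0.802. Lane 3 had 4 libraries, too few for a value. This was 1 of 9 relations computed, and its adjusted p (Benjamini-Hochberg over the 9) was 0.00078 for r and 0.00504 for rho. Among single genes the pairwise r of log2 levels had a median of 0.66 over 45 pairs and of 0.44 without V24. The closest pair was C1qa and C1qc at 0.92, and P2ry12 and Tmem119 reached 0.91. Tyrobp was closest to C1qb at 0.88. Aif1 stood apart from the other genes, with a median r of 0.23 over its 9 pairs and its lowest value, -0.16, against Tyrobp.

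**Figure D1:**
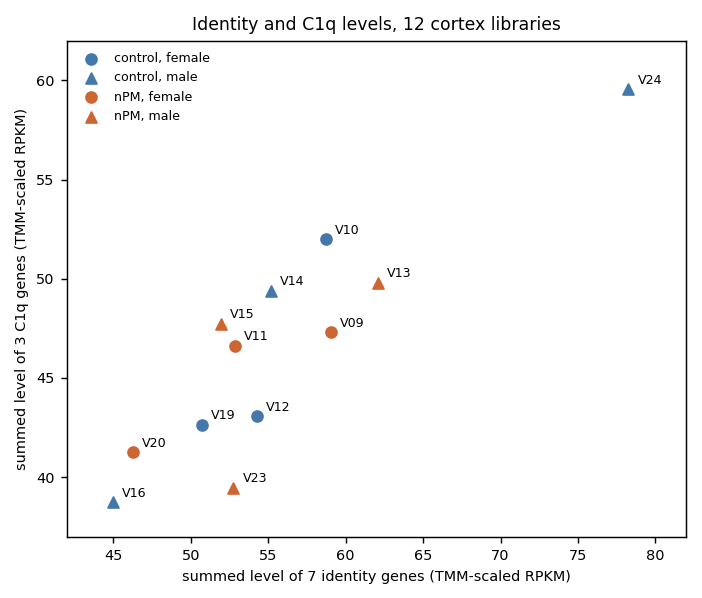
Each point is 1 of the 12 cortex libraries, with the summed TMM-scaled RPKM of the 7 identity genes on the horizontal axis and of the 3 C1q genes on the vertical axis (neither axis starts at 0). Colour gives the exposure and shape the sex. V24 lies alone at 78.3 and 59.6, V16 is lowest at 44.97 and 38.7, and nPM and control libraries are mixed between them.

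The library-to-library pattern was shared with genes of other cell types. The summed TMM-scaled CPM of the 10 genes had r = 0.983 with that of the 22 other microglia genes (permutation p = 1e-05, the smallest the resampling can give, and rho = 0.895 with permutation p = 0.00019), and 0.930 without V16 and V24. It had r = 0.887 with the 7 astrocyte and radial glia markers (rho = 0.783, permutation p = 0.00019 and 0.00377) and r = 0.912 with the 7 oligodendrocyte lineage markers (rho = 0.769, permutation p = 0.00037 and 0.00527). Without V16 and V24 these were 0.685 and 0.736, and in lane 2 they were 0.958 and 0.734. The sum had r = -0.16 with neuron markers, 0.12 with markers of border-associated macrophages, 0.42 with endothelium, -0.18 with choroid plexus and 0.03 with globin genes (permutation p of r from 0.139 to 0.937). Without V16 and V24 the relation was -0.388 with neuron markers and -0.628 with globin genes, and in lane 2 it was -0.677 and -0.739. V24 also had the highest astrocyte sum, 2982 CPM against 2293 CPM in V16, and the highest oligodendrocyte sum, 729 CPM against 394 CPM in the lowest library. All of these markers were detected in every cortex library. What part other cell types had in the pattern of the 10 genes was not tested.

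Of all 15689 genes with at least 1 count in every cortex library and a mean of at least 1 CPM, those most like the 10 genes were named by their correlation with the mean standardised level of the 10. The 10 closest were Kcnab2, Gm17322, Sept8, Tppp, Nrsn1, Siglech, Cx3cl1, Lamp5, Aldoc and Scn2b, with r from 0.95 to 0.97 over 12 libraries, which share depth and scaling. Siglech, a lectin of microglia, and Cx3cl1, the neuronal ligand of CX3CR1, were on the lists described below, and Siglech was first of all genes without V24 (r = 0.97). Without V24, 5 of the 10 closest genes were shared. The rest of the 10 closest genes were on none of the lists. Of the 22 other microglia genes 18 had r over 0.5, against 13.9% of all genes compared. The likeness was not limited to microglia genes. Over 0.5 were also 8 of 13 ligands and partners, 4 of 7 oligodendrocyte lineage, 3 of 7 astrocyte and radial glia and 2 of 8 neuron markers. Of the 6 border-associated macrophage markers compared 0 had r over 0.5.

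The first comparison asked whether prenatal nPM altered these genes in the neonatal cortex of both sexes together. By edgeR's quasi-likelihood test with sex and RNA integrity number (RIN) as covariates, 0 of 10 genes had an adjusted p under 0.05 (background 0.0144% of 20857 genes tested) and 0 had an unadjusted p under 0.005, the cutoff of the study (background 0.614%). None had an unadjusted p under 0.05 by edgeR, limma voom or DESeq2 (background 5.67% by edgeR). The log2 difference between nPM and control was negative for 8 genes and positive for Cx3cr1 and C1qb, with a median of -0.13 over the 10 genes and of 0.00 (-0.0024) over all genes tested. The median of the 10 was -0.0067 without V24, a control, and 0.0765 without both V20 and V24. V20 is a low nPM library and V24 a high control, so leaving out both raises nPM against control. The nPM and control libraries overlapped for 10 of 10 genes (0.197% of all genes tested did not overlap).

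Among the receptors, Cx3cr1 had TMM-scaled CPM of 29.1 at the lowest, 36.2 at the median and 38.8 at the highest of the 6 nPM libraries, and 26.5, 32.5 and 44.8 in control. Its log2 difference was 0.03 (SE 0.11, 95% interval -0.20 to 0.26, adjusted p = 0.979, edgeR). Csf1r lay between 45.7 and 63.3 TMM-scaled CPM in nPM libraries (median 51.7) and between 42.4 and 72.9 in control (median 55.8), a log2 difference of -0.07 (interval -0.30 to 0.16, adjusted p = 0.940, edgeR). The control range enclosed the nPM range for either gene. P2ry12 spanned 23.7 to 35.6 TMM-scaled CPM in nPM (median 31.0) and 25.1 to 50.6 in control (median 31.3), and Trem2 4.63 to 6.34 (median 5.75) and 5.00 to 9.57 (median 5.69). The medians of the exposures were close, and the log2 differences of -0.14 (interval -0.43 to 0.14) for P2ry12 and -0.17 (interval -0.48 to 0.14) for Trem2 included V24, the highest library. Without V24 the difference of P2ry12 was 0.00275.

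Tmem119 had the largest difference of the 10 with all libraries included. Its 6 nPM libraries had 5.79 to 9.44 TMM-scaled CPM (median 6.94) and its 6 control libraries 5.07 to 13.1 (median 8.43), and its log2 difference was -0.28 (SE 0.16, interval -0.63 to 0.07, adjusted p = 0.880, edgeR). An nPM library was above a control library in 10 of 36 pairs, and the exact permutation p of the mean (two-sided) was 0.249. The difference was -0.12 without V24, -0.41 without V16 and -0.0195 without both V20 and V24, where that of Cx3cr1 was 0.21. The marker Aif1 had 2.58 to 4.76 TMM-scaled CPM in nPM (median 3.59) and 3.00 to 4.86 in control (median 3.97), with a log2 difference of -0.14 (interval -0.45 to 0.17). The adaptor Tyrobp had 7.72 to 11.6 (median 11.3) and 8.52 to 13.8 (median 10.7), with -0.03 (interval -0.29 to 0.24).

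Of the C1q genes, C1qa had 15.1 to 19.3 TMM-scaled CPM in nPM (median 17.8) and 15.1 to 23.8 in control (median 18.9), C1qb 16.96 to 21.1 (median 19.5) and 15.8 to 24.1 (median 18.5), and C1qc 18.04 to 24.9 (median 20.98) and 18.4 to 28.1 (median 22.1). Their log2 differences were -0.14 (interval -0.34 to 0.06) for C1qa, 0.04 (interval -0.15 to 0.23) for C1qb and -0.12 (interval -0.32 to 0.09) for C1qc. These are the narrowest intervals of the 10, and they leave room for a difference of -0.34 in 1 direction and 0.23 in the other on the log2 scale. The summed level of the 3 genes was 57.6 ± 5.41 TMM-scaled CPM in nPM (SD, n = 6) and 60.7 ± 9.70 in control.

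The 2 sequencing lanes did not give the same picture. In lane 2, with 4 nPM and 4 control libraries, 7 of 10 genes were higher in nPM and the median log2 difference was 0.05. In lane 3, with 2 and 2, 10 of 10 were lower and the median was -0.39. Lane 3 holds V24, a control and the highest library of all, and V20, an nPM library and a low one. Without both, the differences of P2ry12, Csf1r, Trem2, Tyrobp and C1qc turned positive (0.10, 0.12, 0.05, 0.13 and 0.03). Both were picked after their values were seen. Leaving out a high control and a low nPM library raises nPM against control, so this is no test of the sign.

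**Figure D2:**
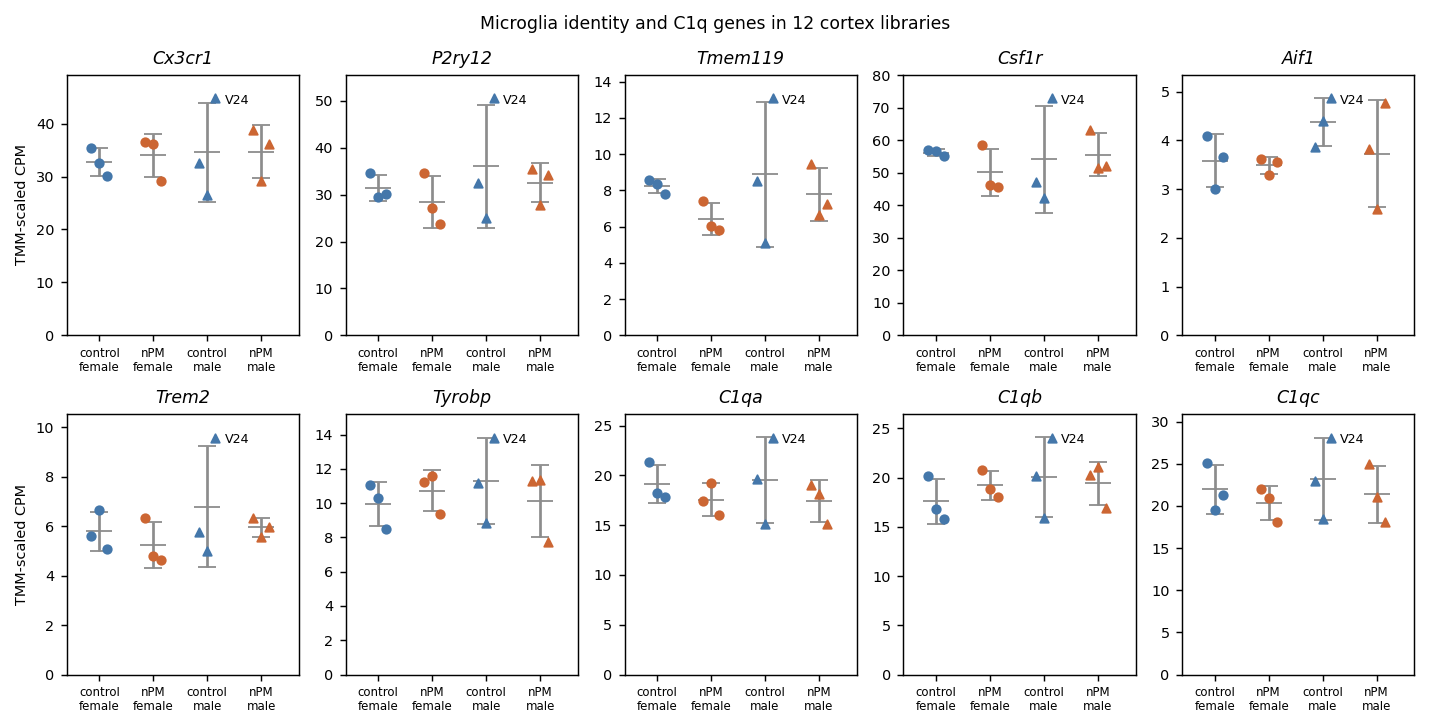
TMM-scaled CPM of each gene in the 12 cortex libraries, in 4 groups of 3 by sex (circles female, triangles male) and exposure (blue control, orange nPM), on axes that start at 0. Grey bars are the mean and SD of each group. V24, in control males, is the top point of each of the 10 panels, at 50.6 for P2ry12 and 13.1 for Tmem119, and Tmem119 in females is the only pair of groups of 1 sex that does not overlap.

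In females alone, 0 of 10 genes passed an adjusted p of 0.05 (background 1.11% of 21731 genes) and 0 an unadjusted p of 0.005 (background 4.02%). At an unadjusted p under 0.05 there was 1, Tmem119, by edgeR, limma voom and DESeq2 alike, against 15.4% of all genes by edgeR. The 3 nPM females had 7.44, 6.01 and 5.79 TMM-scaled CPM of Tmem119 (V09, V11 and V20) and the 3 control females 8.55, 8.37 and 7.80 (V10, V12 and V19). All nPM females were below all control females, and 1 of 10 genes was apart in this way against 21.1% of all genes tested. The log2 difference was -0.35 (SE 0.13, interval -0.64 to -0.06, p = 0.0205, adjusted p = 0.224, edgeR), and the exact permutation p was 0.1, the smallest that 3 against 3 can give. Csf1r had -0.16 (interval -0.35 to 0.03, adjusted p = 0.399), and it had an adjusted p of 0.0357 when V09 was left out (log2 difference -0.29). C1qb had 0.16 (interval -0.05 to 0.37) and Tyrobp 0.11 (interval -0.17 to 0.40), and the median of the 10 genes was -0.10, or 0.07 without V20.

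In males alone, 0 of 10 genes passed an adjusted p of 0.05 (background 0% of 21670 genes by edgeR, with 0 called by limma voom and 3 by DESeq2) and 0 an unadjusted p of 0.005 (background 0.318%). With RIN in the fit all 10 differences were negative, with a median of -0.29. Without RIN those of Cx3cr1 and Csf1r were 0.00643 and 0.0412, and their mean TMM-scaled CPM was 34.7 and 55.5 in nPM against 34.6 and 54.1 in control. By all 3 tools 3 genes had an unadjusted p under 0.05, against 4.51% of all genes (978) by edgeR. Tyrobp had -0.42 (SE 0.14, interval -0.74 to -0.10), C1qa -0.36 (SE 0.12, interval -0.62 to -0.09) and C1qc -0.31 (SE 0.12, interval -0.59 to -0.04), each with an adjusted p of 0.962 (edgeR). The exact permutation p of the means was 0.6 for Tyrobp, 0.4 for C1qa and 0.6 for C1qc. The libraries themselves overlapped for 10 of 10 genes (9.2% of all genes tested did not overlap). Tyrobp was at 11.3, 11.4 and 7.72 TMM-scaled CPM in nPM males (V13, V15 and V23) and at 11.2, 8.86 and 13.8 in control males (V14, V16 and V24). C1qa was at 19.02, 18.2 and 15.1 in nPM and at 19.7, 15.1 and 23.8 in control, so the spread among the 3 controls was wider than the gap of the means. Without RIN as a covariate the differences were -0.15 for Tyrobp and -0.16 for C1qa, neither with an unadjusted p under 0.05, and without V24 the median of the 10 genes was 0.04.

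The difference between the sexes was tested by the interaction of exposure and sex over all 12 cortex libraries. By edgeR 0 of 10 genes passed an adjusted p of 0.05 (background 0% of 20857 genes, with 2018 at an unadjusted p under 0.05, 0 called by limma voom and 67 by DESeq2) and 0 an unadjusted p of 0.005 (background 1.35%), and none of the 10 had an unadjusted p under 0.05 (background 9.68%). C1qb came closest, with -0.31 in males relative to females (interval -0.69 to 0.06, adjusted p = 0.592, edgeR), followed by Tyrobp with -0.40 (interval -0.93 to 0.14, adjusted p = 0.638). Without V24 the median interaction of the 10 genes was 0.11, where it was -0.12 with all libraries.

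**Figure D3:**
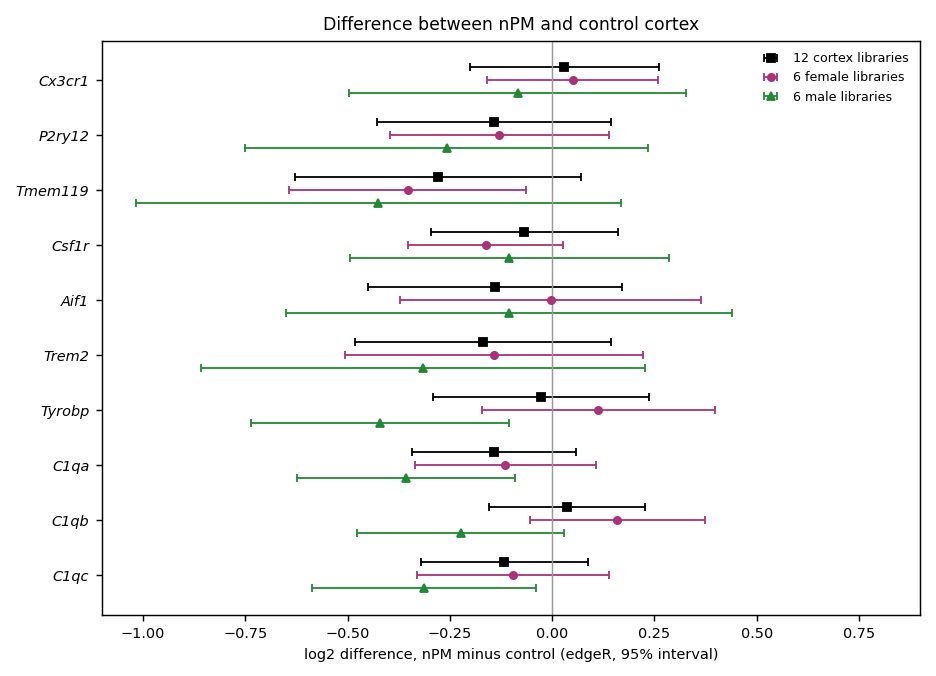
Log2 difference of nPM minus control cortex for each gene, from edgeR's fits on all 12 cortex libraries (black squares), the 6 female libraries (purple circles) and the 6 male libraries (green triangles), with 95% intervals. All intervals of the fit of both sexes cross 0. In females that of Tmem119 does not, and in males those of Tyrobp, C1qa and C1qc do not.

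The C1q chains are made to be joined in equal numbers, and the share of each in their RNA was compared. Of the summed C1q RPKM, C1qa took 35.5 to 39.7% in nPM libraries and 37.6 to 40.7% in control, C1qb 37.1 to 40.6% and 34.1 to 37.8%, and C1qc 22.6 to 25.9% and 23.4 to 25.8%. The mean share of C1qb was 39.2% ± 1.56 in nPM (SD, n = 6) and 36.4% ± 1.43 in control, a difference of 2.82 percentage points. V09, V15, V20 and V23, 4 of the 6 nPM libraries, were above every control library, while V11 and V13 were inside the control range. The mean share of C1qa was 37.1% ± 1.41 in nPM and 39.1% ± 1.18 in control, and 5 of the 6 nPM libraries were below every control library. The difference for C1qb was 2.13 points in lane 2, 4.18 in lane 3, 4.003 in females and 1.63 in males, and 2.36 to 3.23 when any 1 library was left out. The size of each share depends on the deposited lengths, 1040 bases for C1qa, 1088 for C1qb and 1931 for C1qc. As a share of counts without length, the difference for C1qb was 2.56 points. The share was looked at after the values were known, so no test is given.

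Genes that act with these 10 were counted from lists. Of the 22 other microglia genes, 8 were higher and 14 lower in nPM cortex and 0 passed either cutoff, with a median log2 difference of -0.02 (range -0.24 to 0.21). Adgrg1, an adhesion receptor, was at 58.6 ± 3.55 TMM-scaled CPM in nPM (SD, n = 6) and 56.96 ± 3.80 in control. Of the ligands and signalling partners, 13 of 14 could be tested, 3 were higher and 10 lower, 0 passed, and the median was -0.08. Apoe, a ligand of TREM2, was at 623 ± 35.7 TMM-scaled CPM in nPM and 619 ± 78.1 in control, and Cx3cl1, the ligand of CX3CR1, at 270.0 ± 25.2 and 286 ± 57.0. In females Cd47, the "do not eat me" signal read by SIRPA on microglia, had -0.26 (interval -0.40 to -0.13, adjusted p = 0.0685 with edgeR and 0.0298 with DESeq2).

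Of the other complement genes 17 of 18 were tested in the cortex of both sexes, 8 higher and 9 lower, and 0 passed, with a median of 0.00 (-0.0024). In females 2 of 17 had an adjusted p under 0.05, and both fell (0.893% of all genes were called lower). Cd46, a membrane regulator of complement, was at 10.1, 10.3 and 9.22 TMM-scaled CPM in nPM females and at 13.1, 16.6 and 14.7 in control females, a log2 difference of -0.62 (SE 0.10, adjusted p = 0.0150, edgeR). Csmd1, another complement regulator, was at 142, 134 and 142 (142.5 in V20) in nPM and at 165, 165 and 169 in control, and fell by 0.25 (adjusted p = 0.0218). The adjusted p of Cd46 reached 0.112 and that of Csmd1 0.155 under the alternatives, so neither call held under all of them. Cd46 had an interaction with sex of 0.81, past the unadjusted cutoff (adjusted p = 0.334 with edgeR). With DESeq2, which called 67 of 20857 genes, its adjusted p was 0.0498. With edgeR and a filter of at least 1 count in any library it was 0.00173, where 379 of 32461 genes were called. Males had 10.9, 10.4 and 12.8 in nPM and 11.8, 12.7 and 7.64 (V24) in control, and without V24 the interaction of Cd46 was 0.60.

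Of the genes of postnatal and disease-associated microglia states, 15 of 16 were tested and 15 of 15 were higher in nPM cortex (10197 of all 20857 genes were higher), by a median of 0.06, and 0 passed. In females 13 were higher and 2 lower, and in males 10 and 5. Apoe is on this list too, and Fabp5 was the next most counted. In both sexes together the log2 differences ran from 0.0024 (Apoe) to 0.95 (Spp1). The summed level of the list overlapped, at 1449 to 1580 CPM in nPM and 1378 to 1630 CPM in control. Over the cortex libraries, 13 genes of this list were compared with the mean standardised level of the 10 genes. Their median r was -0.08, against 0.74 for the 22 other microglia genes. Which cells the differences of this list came from was not tested. In females Spp1 (osteopontin) rose by 1.45 on the log2 scale (SE 0.31, adjusted p = 0.0495, edgeR), from 7.22, 5.11 and 9.06 TMM-scaled CPM in control to 11.02, 35.9 and 18.2 in nPM, but limma voom and DESeq2 did not call it (adjusted p = 0.0965 and 0.147). Its adjusted p was 0.0622 with at least 10 counts per library and reached 0.227 with 1 library left out (V20). Spp1 in males was at 13.3, 26.5 and 7.85 in nPM and 12.6, 24.6 and 5.11 in control. Fabp5 in females had 0.19 (adjusted p = 0.124 with edgeR and 0.0464 with DESeq2). Of 15 inflammatory genes 9 could be tested, 5 higher and 4 lower, and 0 passed, with a median log2 difference of 0.01 (range -0.33 to 1.05). At an unadjusted p under 0.05 by edgeR there was 1 of the 9, against 5.67% of all genes. Cyba was at 4.59 ± 0.740 TMM-scaled CPM in nPM and 4.21 ± 0.557 in control, and Ptgs2 at 2.39 ± 0.564 and 2.67 ± 0.626. The summed level of the list was 11.9 to 15.8 CPM in nPM and 11.7 to 15.4 CPM in control.

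Markers of other cells that could carry the same genes were measured beside them. Of 11 markers of border-associated macrophages, 10 were higher and 1 lower in nPM cortex, with a median of 0.17 and 0 passing. At an unadjusted p under 0.05 by edgeR there were 3, against 5.67% of all genes. Their summed level was 45.8 to 56.6 CPM in nPM (median 52.5) and 33.3 (V14) to 49.7 CPM in control (median 45.8), so the groups overlapped. Mrc1 and Stab1 were the most counted of them. In females Ms4a7 had -1.67 (adjusted p = 0.122, past the unadjusted cutoff), on fewer than 1 CPM in every library. Of 10 monocyte markers 5 could be tested and 0 passed, and Vcan, which other brain cells also make, and Ace held most of their sum. Of 7 neutrophil markers 3 could be tested and 0 passed, and their sum was under 1 CPM at the median of either exposure, with Elane at 0 in all nPM libraries. The neuron, astrocyte, oligodendrocyte lineage, endothelium and choroid plexus lists had medians of -0.02, 0.03, -0.01, 0.04 and 0.37, and globin genes -0.03, with 0 genes passing in any of them. The choroid plexus sum was 234 to 510.01 CPM in nPM (median 403) and 30.6 (V14) to 394 CPM in control (median 350.4), so the groups overlapped. In females Fabp7, of radial glia, rose by 0.36 (adjusted p = 0.0292, edgeR, but 0.182 without V20) and Ttr, of choroid plexus, had 0.32 (adjusted p = 0.121). The part of these cells in the values of the 10 genes was not tested.

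In whole blood the 10 genes ranged from levels near 0 to those of P2ry12. C1qa, C1qb and C1qc had means of only 0.341, 0.363 and 0.357 CPM over 11 libraries, from 1 to 24 counts each. Tmem119 and Trem2 were at 0 in 4 of the 11 libraries and Aif1 in 1, where a count of 0 allows up to 0.221 CPM (3 counts in the smallest library). Cx3cr1 had 1.496 ± 0.712 CPM (SD, n = 11) and Csf1r 6.03 ± 2.79. P2ry12, the platelet receptor, had 12.3 ± 2.83 CPM and Tyrobp 6.89 ± 1.62, with at least 171 and 100 counts in every library.

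On the scale of library totals, every cortex library was above every blood library for 9 of 10 genes, the exception being Tyrobp (86.7% of 20857 genes counted in all cortex libraries showed this). The ratio of mean CPM was 54.0 for C1qa, 52.4 for C1qb and 60.7 for C1qc, 80.8 for Tmem119, 41.995 for Trem2, 22.7 for Cx3cr1, 21.2 for Aif1, 8.96 for Csf1r, 2.61 for P2ry12 and 1.52 for Tyrobp. Globin counts take most of a blood library and lower the CPM of every other gene. With globin counts removed, 7 of 10 genes were still apart (72.4% of all genes), Csf1r and P2ry12 overlapped, and Tyrobp was lower in every cortex library, at 10.5 CPM against 25.5 CPM in blood. C1qa was then 14.5, C1qb 14.2 and C1qc 16.5 times higher in cortex.

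The fit of tissue could test 7 of the 10 genes, those with counts in all 23 libraries, and by edgeR with TMM scaling 7 of 7 passed an adjusted p of 0.05, as did 90.9% of the 9602 genes tested. With DESeq2 the call of Cx3cr1 was lost (0.26, adjusted p = 0.12), and with globin counts removed and library totals that of P2ry12 (-0.13, adjusted p = 0.273). The log2 difference of cortex minus blood was 1.69 for C1qa, 1.62 for C1qb, 1.82 for C1qc and 0.48 for Cx3cr1, and -0.87 for Csf1r, -2.69 for P2ry12 and -3.45 for Tyrobp. The scaling sets the zero of these values. The median of all genes was 0.24 with TMM, 4.65 with library totals and 2.78 with library totals after globin counts were removed. Under library totals Csf1r, P2ry12 and Tyrobp turned positive (3.57, 1.76 and 1.00), and they were below the median of all genes. The 3 C1q genes were above the median of all genes with TMM, and positive under all 3 scalings. Neuron markers summed to 4.18 to 6.28 CPM in the blood libraries of lane 3 and to 19.6 CPM in V5 of lane 1, where the median was 0.270 CPM. The C1q sum in blood was 0.648 to 1.60 CPM against 49.5 to 74.4 CPM in cortex, and the part of brain RNA in it was not tested.

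**Figure D4:**
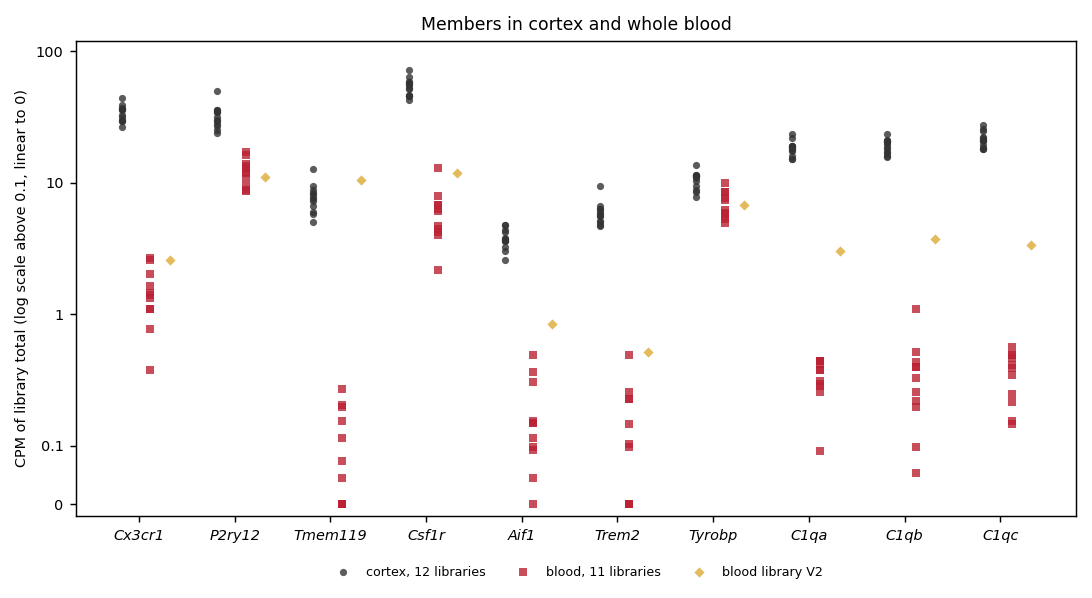
CPM of library totals for each gene in the 12 cortex libraries (black), 11 blood libraries (red) and the blood library V2 (yellow), on a scale that is logarithmic above 0.1 CPM and linear below. P2ry12, Csf1r and Tyrobp are the highest of the 10 genes in blood, the C1q genes reach 1.096 CPM at most in the 11 blood libraries, and V2 reaches 10.6 CPM for Tmem119.

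In blood 0 of the 7 genes tested passed an adjusted p of 0.05 between nPM and control (background 0% of 9977 genes by edgeR, with 310 (3.11%) at an unadjusted p under 0.05, 0 called by limma voom and 1 by DESeq2) and 0 an unadjusted p of 0.005 (background 0.17%). Cx3cr1, which monocytes carry in blood, came closest. Its 6 nPM libraries had 0.771 CPM at the lowest, 1.83 at the median and 2.69 at the highest, and its 5 control libraries 0.378, 1.09, 1.096, 1.33 and 1.40. An nPM library was above a control library in 26 of 30 pairs, and the log2 difference was 0.62 (SE 0.25, interval 0.09 to 1.14, adjusted p = 1.00, edgeR), with an exact permutation p of 0.0649. Csf1r had 0.45 (interval -0.02 to 0.92, adjusted p = 1.00), with 4.04 to 12.9 CPM in nPM and 2.16 to 6.77 in control. P2ry12 had -0.19 (interval -0.58 to 0.20) and Tyrobp -0.17 (interval -0.56 to 0.21), with wide overlap of the groups. The C1q genes had -0.21, 0.01 and 0.22 with intervals from -1.16 at the lowest to 1.096 at the highest, on 1 to 24 counts per library.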

How the data were processed

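RNA-seq was deposited for 24 libraries, 12 of cortex and 12 of blood. The authors depleted ribosomal RNA, used HISAT2 for alignment to mm10 and featureCounts 1.5.0-p3 for counting on the Gencode M11 annotation, and the deposited values are raw counts without normalization. The authors also deposited mean RPKM values, which were not used in any test. The strand setting is not given in the sources used here.

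Tests were edgeR's quasi-likelihood F test (edgeR 4.0.16, R 4.3.3, prior count 0.5) with TMM scaling, leaving out any gene at 0 in a fitted library. In the fits of nPM, RIN and, where both sexes entered, sex were covariates. The fit of cortex against blood had exposure and sex as covariates and not RIN, which did not overlap between the tissues. RIN was 9.4 to 9.9 in cortex and 7.5 to 9.3 in blood without V2, so the tissue differences are not adjusted for it. Adjusted p-values are Benjamini-Hochberg values over all genes of a fit. Cutoffs were an adjusted p of 0.05 and an unadjusted p of 0.005. Alternatives were limma voom 3.58.1, DESeq2 1.42.0, RLE factors, other count filters, no RIN, a lane covariate, other scalings for blood and each library left out in turn. Fits without both V20 and V24, library totals without globin counts and TMM, and the C1q shares were added after seeing the data. Correlations used 100000 resamples (scipy 1.17.1). Scripts were tested on simulated data.

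V2 was left out of blood fits, because the study excluded 1 blood library for its distinct counts without naming it and V2 stood apart here. Counting intervals and floors (3 counts for a count of 0) cover counting error only. The 10 genes and the 14 other gene lists were chosen with earlier results of these data known. Named beside the 10 were, of each list, the 2 genes with the highest mean level and those with an unadjusted p under 0.005, and the 10 genes most like the 10 over cortex libraries. The result of 1 gene that this rule names is not reported here.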

Additional observations from a re-analysis of the deposited data

Results flagged for a closer look

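In 40 groups of 6 libraries the highest or lowest library was compared with its nearest neighbour by Dixon's criterion. Chance meets it in about 1 of 20 groups, and 6 values met it. The groups share libraries and most of the genes varied together, so these 6 values are not independent of each other. In control cortex V24 had 50.6 TMM-scaled CPM of P2ry12, where the next library had 34.6, and 9.57 of Trem2, where the next had 6.65. In control blood V2 had 10.6 CPM of Tmem119 (next 0.198), 3.02 of C1qa (next 0.445), 3.73 of C1qb (next 1.096) and 3.35 of C1qc (next 0.495). V2 also held 3861 CPM of Krt1, 3161 CPM of Krt10 and 541 CPM of Krt14, and the part of other tissue in its values was not tested. For 18 genes the effect of nPM was compared between the sexes. By edgeR's interaction term none of the 18 had an adjusted p under 0.05, but Cd46 had an unadjusted p under 0.005 (adjusted p = 0.334). DESeq2 called it (adjusted p = 0.0498) among 67 of 20857 genes. With edgeR and a filter of at least 1 count in any library it was called (adjusted p = 0.00173) among 379 of 32461 genes. Cd46 was named for its p-values in these same data, and its interaction was 0.81 with all libraries and 0.60 without V24.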

How the results depend on the processing

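No paired analysis was possible because the labels give no replicate numbers that link nPM with control libraries. Without both V20 and V24, the cortex log2 differences were 0.10 for P2ry12, 0.12 for Csf1r, 0.0537 for Trem2, 0.13 for Tyrobp and 0.0279 for C1qc, where all libraries gave negative values. V20 is a low nPM library and V24 a high control, both picked after their values were seen, so these differences are no test of the sign. With 1 library left out at a time, cortex differences ranged from -0.0453 (without V16) to 0.14 (V24) for Cx3cr1, -0.24 (V16) to 0.00275 (V24) for P2ry12, -0.14 (V16) to 0.0380 (V24) for Csf1r, -0.13 (V11) to 0.0646 (V24) for Tyrobp and -0.0168 (V11) to 0.11 (V24) for C1qb. The interaction ranged, from without V20 to without V24, from -0.35 to 0.11 for the median of the 10 genes, -0.32 to 0.17 for Cx3cr1, -0.37 to 0.28 for P2ry12, -0.22 to 0.46 for Tmem119, -0.0610 to 0.44 for Csf1r, -0.33 to 0.26 for Trem2, -0.37 to 0.0318 for C1qa and -0.39 to 0.0444 for C1qc. In females the number of the 10 genes called ranged from 0 to 1 at either cutoff (Csf1r without V09), and the median from -0.13 (V12) to 0.0686 (V20). Female ranges were -0.0487 to 0.23 for Cx3cr1, -0.29 to 0.10 for P2ry12, -0.12 to 0.10 for Aif1, -0.30 to 0.00303 for Trem2, -0.0456 to 0.30 for Tyrobp, -0.20 to 0.0199 for C1qa and -0.18 to 0.0819 for C1qc. Female Aif1 was 0.0107 with limma voom, 0.00175 with DESeq2 and 0.00254 with RLE factors. In males 0 to 1 genes passed the unadjusted cutoff (Tyrobp without V14), and the median ranged from -0.45 (V23) to 0.0366 (V24). Male ranges were -0.46 to 0.20 for Cx3cr1, -0.75 to 0.13 for P2ry12, -0.31 to 0.22 for Csf1r, -0.44 to 0.11 for Aif1 and -0.68 to 0.10 for Trem2, and without RIN Cx3cr1 was 0.00643 and Csf1r 0.0412. In blood C1qb was -0.0171 with a lane covariate, -0.0712 without V5 and -0.25 (V22) to 0.42 (V1) with 1 library left out, and with all 12 libraries P2ry12 was 0.10 and Tyrobp 0.0724. Between cortex and blood the median of the 7 genes tested was 0.88 in control libraries, 4.90 with library totals and 3.03 with globin counts also removed. P2ry12, Csf1r and Tyrobp were 1.76, 3.57 and 1.00 with library totals, and Csf1r 1.68 with globin counts also removed. Ranked on residuals after exposure and sex, 6 of the 10 most similar genes were shared, and 5 without V24. The causes were not tested. Depth limits Tmem119, Aif1, Trem2 and C1q in blood, at 24 counts or fewer outside V2.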
